A study of Mus musculus with 12 samples.

Results

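The genes described are 9 that B cell precursors use in turn as they mature, namely Rag1, Dntt, Ebf1, Pax5, Vpreb1, Vpreb3, Igll1, Cd79a and Cd79b. They were chosen by name, as regulators, recombination enzymes and receptor parts of early B cells, with earlier results of these data known. They are 9 of the 31272 gene names listed. RNA came from bone marrow cells of wild-type mice, sorted as hematopoietic stem cells (HSCs), in 12 libraries of 4 groups with 3 libraries each. The groups were control (Ctrl), ionizing radiation (IR) and 2 more irradiated groups labelled Ab_IR and L_IR, whose prefixes the labels do not spell out and which are used here as given. Cells of the irradiated groups were taken 3 days after exposure, which the study's methods describe as a single sublethal dose to the whole body of C57BL/6 mice. All groups carried the same wild-type genotype, the ages were not given in the sources used here, and neither was the number of mice behind a library, so p-values measure the spread between libraries, which may be technical.

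B cells arise from HSCs through lymphoid progenitors in which Flt3 and then Il7r act, and the transcription factors encoded by Tcf3, Ebf1 and Pax5 switch on the B lineage program. The recombinase encoded by Rag1 and Rag2 joins the gene segments of the immunoglobulin heavy chain, and the terminal transferase encoded by Dntt adds bases at the joints. The new heavy chain is then shown on the cell surface with a surrogate light chain, made from the products of Vpreb1, Vpreb2 and Igll1, and with the signalling pair encoded by Cd79a and Cd79b. Dntt and Rag1 are also known to be transcribed at low level before B lineage commitment, in multipotent progenitors primed towards lymphoid fates.

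The sorting gate described for HSCs took lineage-negative, Sca-1-positive, c-Kit-positive cells that lacked surface Flt3 and CD34, and the lineage antibodies included B220, a B cell surface protein. Of 14 HSC markers listed, 10 reached 1 FPKM in at least 1 library, among them Kit at 6.7 to 25.45 FPKM, Ly6a, which encodes Sca-1, at 25.92 to 61.47 FPKM and Gata2 at 4.89 to 17.2 FPKM over the 12 libraries. The other 4, Slamf1, Mecom, Hoxb5 and Fgd5, known from long-term HSCs, were under 1 FPKM in all 12. The summed level of those 14 markers was 99.7 to 115.0 FPKM in Ctrl, 80.2 to 88.1 in IR, 103.0 to 107.0 in Ab_IR and 104.0 to 107.0 in L_IR. FPKM counts fragments per kilobase of transcript, scaled to the library, so levels can be compared between genes. The depth behind the values is unknown, and they carry no counting interval. Library sums ran from 344338 to 405123 FPKM. Ctrl replicate 1 stood apart, as 44.1% of its rows were 0, whereas this share was 24.7% to 27.3% elsewhere. A further split crossed the groups, since Nppa, which encodes an atrial hormone, was at 51.16 to 63.92 FPKM in 5 libraries (Ctrl replicates 2 and 3 and all of IR) and at 0 to 0.26 FPKM in the other 7. IR and the Ab_IR or L_IR groups lay wholly on opposite sides of this split, so it and these group differences cannot be told apart except through Ctrl replicate 1. A fit with the split as a term sizes that term from Ctrl replicate 1 against Ctrl replicates 2 and 3 alone.

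The stretches upstream of Dntt, Rag1, Pax5 and Igll1 are shown because these genes were lowest in IR and intermediate in L_IR, as described next, and because their upstream windows abut or precede the starts of both annotations used. Each is 250 bases on the coding strand, 5′ to 3′ and ending just before the RefSeq start (GRCm38.p6). Capitals mark CANNTG, the E-box read by basic helix-loop-helix factors such as the product of Tcf3. They lie at chr19:41029025-41029274 on the plus strand for Dntt, at chr2:101649533-101649782 on the minus strand for Rag1, at chr4:44710695-44710944 on the minus strand for Pax5 and at chr16:16863986-16864235 on the minus strand for Igll1.
Dntt: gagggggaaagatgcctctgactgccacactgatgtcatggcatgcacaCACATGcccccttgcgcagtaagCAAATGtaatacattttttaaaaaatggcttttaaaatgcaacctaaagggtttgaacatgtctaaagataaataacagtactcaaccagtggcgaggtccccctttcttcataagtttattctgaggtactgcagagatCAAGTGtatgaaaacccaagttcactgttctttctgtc
Rag1: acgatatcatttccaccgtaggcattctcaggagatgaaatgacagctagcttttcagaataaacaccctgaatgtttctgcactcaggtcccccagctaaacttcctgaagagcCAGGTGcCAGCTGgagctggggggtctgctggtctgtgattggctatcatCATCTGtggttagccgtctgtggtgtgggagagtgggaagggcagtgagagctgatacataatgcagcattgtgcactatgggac
Pax5: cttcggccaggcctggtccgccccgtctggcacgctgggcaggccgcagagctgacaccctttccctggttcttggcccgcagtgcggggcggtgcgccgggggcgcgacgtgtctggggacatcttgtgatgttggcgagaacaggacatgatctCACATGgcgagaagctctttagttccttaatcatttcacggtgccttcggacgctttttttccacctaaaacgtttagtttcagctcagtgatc
Igll1: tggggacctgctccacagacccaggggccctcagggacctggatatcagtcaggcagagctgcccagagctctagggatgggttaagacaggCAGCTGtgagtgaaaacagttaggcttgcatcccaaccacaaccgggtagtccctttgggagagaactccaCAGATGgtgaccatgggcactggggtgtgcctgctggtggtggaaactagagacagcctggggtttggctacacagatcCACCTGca
The windows of Dntt, Rag1 and Igll1 hold 3 E-boxes each and that of Pax5 holds 1. RefSeq windows were found for 8 of the 9 genes, all but Cd79b, and since Ebf1 has 2 there were 9 windows. CANNTG, which reads the same way on both strands, was in 8 of the 9 windows, as in 66.2% of 32851 windows of the same length. The palindromic core motif of early B cell factor, the product of Ebf1, was in 0 of these 9 windows and in 0.779% of all windows. GGGAA, a shorter motif known from Ikaros family binding, was on either strand in 8 of the 9 windows and in 56.2% of all windows. E-boxes were thus common in promoters generally, and a match is only a description of the letters.

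Dntt, the terminal transferase gene, gave the largest difference of the 9 genes on the log2(FPKM + 1) scale. It spans 41029275 to 41059525 on chromosome 19 (GRCm38, GENCODE M21). Its level in Ctrl was 14.34, 13.60 and 12.44 FPKM in replicates 1, 2 and 3. In IR it was 0.35, 0.30 and 0.26 FPKM. All IR libraries therefore lay far under all Ctrl libraries, the mean of IR being 2.25% of that of Ctrl. Ab_IR libraries held 13.01, 12.48 and 12.33 FPKM, a range that overlapped Ctrl. L_IR libraries held 4.24, 4.20 and 4.61 FPKM. The L_IR libraries thus sat between the others, above every IR library and below every Ctrl and Ab_IR library. The order of means was Ctrl, Ab_IR, L_IR and IR, at 13.5 ± 0.958, 12.6 ± 0.357, 4.35 ± 0.226 and 0.303 ± 0.0451 FPKM (SD, n = 3), and only Ctrl and Ab_IR did not part.

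On the log2(FPKM + 1) scale, which understates changes of low values, Dntt fell by 3.47 in IR against Ctrl (SE 0.0808, limma adjusted p = 5.11e-06). Against IR it rose by 3.38 in Ab_IR (SE 0.0507, adjusted p = 2.36e-08), and the mean FPKM was 41.6 times that of IR. In L_IR it rose by 2.04 against IR (SE 0.0575, adjusted p = 4.02e-07), with a mean 14.3 times that of IR. The Ab_IR level also exceeded that of L_IR, by 1.35 (SE 0.0474, adjusted p = 1.16e-05), and L_IR stayed below Ctrl, where Dntt fell by 1.43 (SE 0.0763, adjusted p = 0.000157). Between Ab_IR and Ctrl the difference was -0.09 (SE 0.0758, adjusted p = 0.503). In bulk RNA, fewer cells that transcribe a gene and less RNA of it per cell cannot be told apart. The fall in IR was -3.43 without Ctrl replicate 1, which leaves only libraries on one side of the Nppa split. With that split as a term, Dntt was 3.25 higher in Ab_IR and 1.91 higher in L_IR than in IR.

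Rag1, the catalytic part of the recombinase, was low throughout. Ctrl libraries listed it at 0.18, 0.35 and 0.24 FPKM. IR libraries listed it at 0, 0 and 0.01 FPKM. Ab_IR libraries overlapped those of Ctrl, whereas the L_IR libraries, all above IR, lay below every Ctrl library. The Ab_IR values were 0.25, 0.37 and 0.23 FPKM. The L_IR values were 0.04, 0.02 and 0.07 FPKM. No Rag1 value reached 1 FPKM, so the gene was outside the tests, which required 1 FPKM or more in 3 or more of the libraries compared. Fitted without that filter, it differed from Ctrl by -0.32 in IR (SE 0.0526, limma adjusted p = 0.0111) and from IR by 0.35 in Ab_IR (SE 0.0443, adjusted p = 0.00148) and 0.06 in L_IR (SE 0.021, adjusted p = 0.098). Its partner Rag2 was at 0 to 0.13 FPKM in all 12 libraries.

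Calls were not shared by the remaining genes of recombination and end joining. Of 12 such genes listed (Rag2, the end joining enzymes and other factors), 10 passed the filter. Under limma, 0 were called in each of the 6 comparisons, where called means an adjusted p under 0.05 and a log2 fold change above 1 in size. At an unadjusted p under 0.05 they numbered 5 in IR against Ctrl, where 51.3% of all genes tested did, 7 in Ab_IR against IR (71.3%) and 9 in L_IR against IR (69.5%). They numbered 5 in Ab_IR against L_IR (48.1%) and, against Ctrl, 3 in Ab_IR (20.9%) and 4 in L_IR (24.7%). Their median log2 change in IR against Ctrl was -0.006, beside -0.046 over all genes tested.

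Pax5, the factor that commits cells to the B lineage, was also low, and its 4 groups did not overlap. Ctrl libraries held 0.73, 0.33 and 0.33 FPKM. IR libraries held 0.02, 0.04 and 0.02 FPKM, the lowest of the groups. Ab_IR came next to Ctrl, and L_IR lay between Ab_IR and IR. In Ab_IR the values were 0.27, 0.23 and 0.29 FPKM. In L_IR they were 0.11, 0.14 and 0.11 FPKM. Without the filter, Pax5 differed by -0.50 in IR against Ctrl (SE 0.11, limma adjusted p = 0.0304) and by 0.30 in Ab_IR against IR (SE 0.027, adjusted p = 0.000388). L_IR differed from IR by 0.13 (SE 0.0203, adjusted p = 0.00468).

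Ebf1, which acts with Pax5 and before it, had its lowest mean in IR and the next in L_IR, but its libraries were not separated in this way. Its values were 0.14, 0.28 and 0.39 FPKM in Ctrl and 0.19, 0.11 and 0.14 FPKM in IR. The Ab_IR values were 0.21, 0.28 and 0.34 FPKM and the L_IR values 0.21, 0.22 and 0.18 FPKM. Ctrl overlapped all 3 irradiated groups, while every Ab_IR library lay above every IR library. Without the filter, the Ebf1 difference of IR from Ctrl was -0.14 (SE 0.0797, limma adjusted p = 0.328), and that of Ab_IR from IR was 0.15 (SE 0.0489, adjusted p = 0.0562). Leaving out Ctrl replicate 1 as well, the difference of IR from Ctrl was -0.22 (adjusted p = 0.0471).

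The genes of the surrogate light chain, Vpreb1 and Igll1, lie 4418 bases apart on chromosome 16 (Vpreb1 at 16868403 to 16870843, Igll1 at 16860671 to 16863985). Vpreb1 supplies the variable-like part. Its Ctrl values were 0.22, 1.19 and 1.23 FPKM, the low one being Ctrl replicate 1. IR values were 0.11, 0.23 and 0.26 FPKM. Vpreb1 in Ab_IR was above every other library, and L_IR was above IR. The Ab_IR values were 1.64, 1.80 and 1.91 FPKM. The L_IR values were 0.59, 0.55 and 0.40 FPKM. Vpreb1 rose by 1.22 in Ab_IR against IR (SE 0.0764, limma adjusted p = 9.32e-06), and its Ab_IR level was higher than that of L_IR by 0.88 (SE 0.0785, adjusted p = 0.00029), which passed the adjusted p but not the fold. Reads of Vpreb1 are uncertain, since its copy Vpreb2 matched it at 97.4% of 759 aligned transcript bases and the counting could have split reads between them. With the Nppa split as a term, Vpreb1 was 2.07 higher in Ab_IR than in IR, and it was called in L_IR against IR at 1.19 (adjusted p = 6.46e-05). That L_IR difference was 0.33 without the filter or the term (adjusted p = 0.0159), and in a fit of all 12 libraries its adjusted p was 0.189. Vpreb2 itself was at 0 to 0.56 FPKM, highest in an Ab_IR library.

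Igll1 supplies the constant-like part, which joins the heavy chain. Ctrl libraries held 0.40, 1.21 and 1.14 FPKM, again lowest in replicate 1. IR libraries held 0.05, 0.09 and 0.09 FPKM. Every IR library was under every other library, and Ab_IR was at or above Ctrl. The Ab_IR values were 1.21, 1.49 and 1.56 FPKM. The L_IR values were 0.37, 0.29 and 0.63 FPKM. Igll1 thus shared with Dntt, Rag1, Pax5 and Vpreb1 the order of IR lowest and L_IR between IR and Ab_IR. It rose by 1.17 in Ab_IR against IR (SE 0.0773, limma adjusted p = 1.18e-05) and was 0.76 higher in Ab_IR than in L_IR (SE 0.109, adjusted p = 0.00195). With the Nppa split as a term it was 1.80 higher in Ab_IR than in IR, and it was called in L_IR against IR at 1.04 (adjusted p = 0.000573). Without the filter or the term that L_IR difference was 0.40 (adjusted p = 0.0159), and in a fit of all 12 libraries its adjusted p was 0.0673. The filter left Igll1 and Vpreb1 out of IR against Ctrl. Fitted without it, Igll1 differed by -0.80 (SE 0.185, adjusted p = 0.0353) and Vpreb1 by -0.60 (SE 0.248, adjusted p = 0.19). Leaving out Ctrl replicate 1 as well, the differences were -1.01 (adjusted p = 0.000641) and -0.88 (adjusted p = 0.00283).

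Vpreb3, a relative of Vpreb1 whose product associates with newly made immunoglobulin chains inside the cell, went the other way. It matched Vpreb1 at 62.7% of 335 aligned transcript bases, far less than Vpreb2 did. Ctrl libraries listed it at 0, 1.64 and 1.61 FPKM. IR libraries held 3.79, 3.19 and 3.74 FPKM. All 9 irradiated libraries were above all 3 Ctrl libraries. In Ab_IR the values were 3.23, 2.70 and 2.54 FPKM, and in L_IR 3.67, 3.44 and 2.94 FPKM. Vpreb3 rose by 1.26 in IR against Ctrl (SE 0.377, limma adjusted p = 0.0362). That call rested on Ctrl replicate 1, where Vpreb3 was listed at 0, for without this library the difference was 0.80 (adjusted p = 0.000412), under the fold. The call was also lost when any 1 IR library was left out, at adjusted p of 0.0847 to 0.102. Ab_IR differed from IR by -0.26 (SE 0.0858, adjusted p = 0.0291) and L_IR by -0.07 (SE 0.0823, adjusted p = 0.459). With the Nppa split as a term these differences turned positive, at 1.13 (adjusted p = 0.000135) and 1.32 (adjusted p = 6.37e-05).

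**Figure D1:**
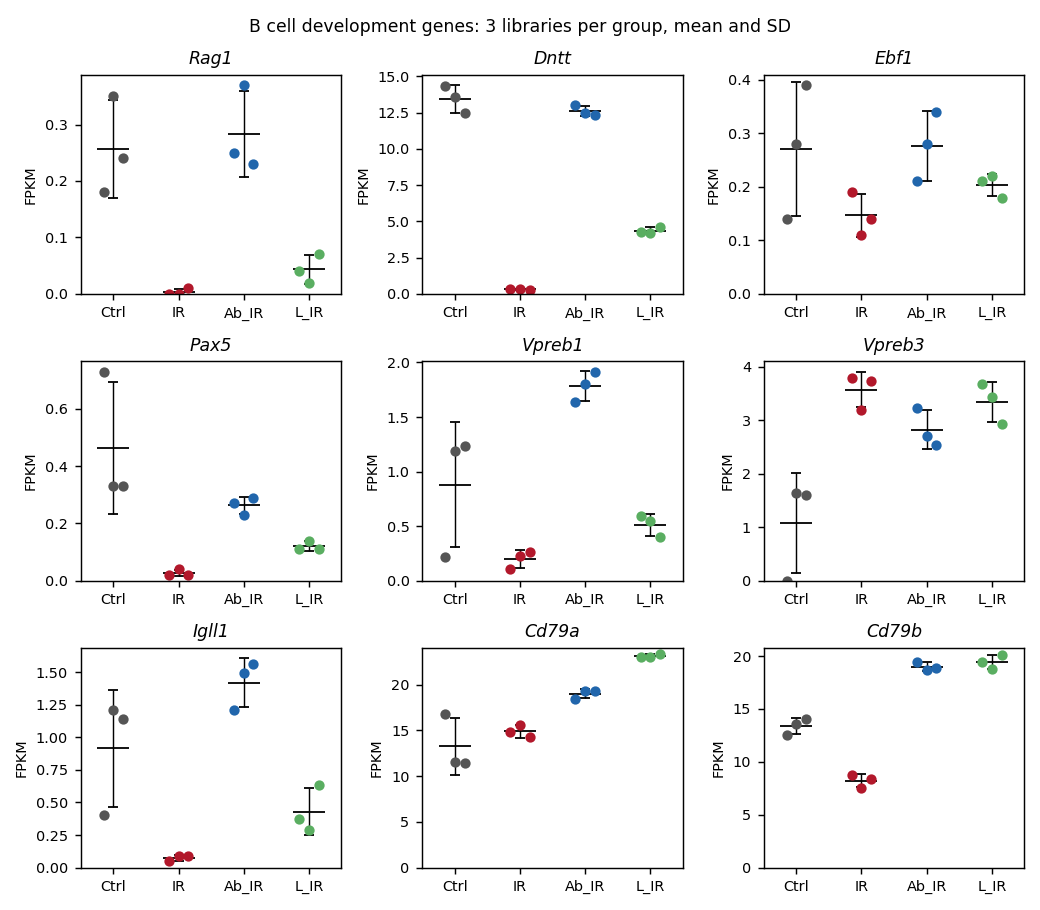
FPKM of the 9 B cell development genes (y axes, linear and separate for each gene) in Ctrl, IR, Ab_IR and L_IR (x axes). Points are single libraries and bars give the mean and SD (n = 3), and Dntt, Pax5, Rag1, Vpreb1 and Igll1 are lowest in IR and intermediate in L_IR, whereas Vpreb3 and Cd79a are not lowest in IR.

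The signalling pair of the B cell receptor was at far higher levels than the surrogate light chain. Cd79a and Cd79b encode Igα and Igβ, and Cd79b lies on chromosome 11 at 106311341 to 106314762. Cd79b was at 12.57, 13.56 and 14.07 FPKM in Ctrl. It was at 8.74, 7.55 and 8.41 FPKM in IR. Every IR library was thus below every Ctrl library, and both further groups were above Ctrl. In Ab_IR Cd79b was at 19.46, 18.68 and 18.88 FPKM. In L_IR it was at 19.42, 18.77 and 20.11 FPKM. Unlike Dntt, Cd79b did not separate these 2 groups, with a difference of -0.03 (SE 0.0403, limma adjusted p = 0.587). It rose by 1.12 in Ab_IR against IR (SE 0.0551, adjusted p = 2.95e-06) and by 1.15 in L_IR against IR (SE 0.0544, adjusted p = 3.55e-06). IR against Ctrl gave -0.64 (SE 0.0783, adjusted p = 0.00125), which passed the adjusted p but not the fold. With immunoglobulin genes left out of the scaling, the rise in Ab_IR was 0.98, just under the fold.

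Cd79a, on chromosome 7 at 24897381 to 24902197, did not follow Cd79b in IR. Ctrl libraries held 16.84, 11.51 and 11.47 FPKM. IR libraries held 14.85, 15.59 and 14.25 FPKM, above Ctrl replicates 2 and 3 and below Ctrl replicate 1. The other irradiated groups lay above both, and L_IR was the highest. Ab_IR libraries held 18.47, 19.31 and 19.35 FPKM. L_IR libraries held 22.99, 23.08 and 23.34 FPKM. The difference of IR from Ctrl was 0.18 (SE 0.148, limma adjusted p = 0.38), and 0.35 (SE 0.0543, adjusted p = 0.00227) without Ctrl replicate 1. Against IR, Cd79a differed by 0.34 in Ab_IR (SE 0.0442, adjusted p = 0.00038) and by 0.60 in L_IR (SE 0.0361, adjusted p = 1.03e-05), and Ab_IR differed from L_IR by -0.27 (SE 0.036, adjusted p = 0.0015), none of them past the fold. With the Nppa split as a term, the Cd79a difference of Ab_IR from IR turned to -0.18 (adjusted p = 0.0435) and that of L_IR from IR was 0.09 (adjusted p = 0.299). In Ctrl the 2 genes of the pair had means of 13.3 ± 3.09 and 13.4 ± 0.763 FPKM, whereas in IR Cd79a was at 14.9 ± 0.671 and Cd79b at 8.23 ± 0.614 FPKM (SD, n = 3).

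Counted over the comparisons, 4 of the 9 genes passed the filter in IR against Ctrl. Of these, 1 was called higher (Vpreb3) and 1 lower (Dntt), beside 3.03% (higher) and 4.57% (lower) of 12072 genes. In Ab_IR against IR 6 passed and 4 were called higher, namely Dntt, Vpreb1, Igll1 and Cd79b, where 5.11% of 12067 genes were called higher. In L_IR against IR 4 passed and Dntt and Cd79b, 2 of them, were called higher, where 4.09% of 12163 genes were. In Ab_IR against L_IR 6 passed and only Dntt was called, higher in Ab_IR, where 0.295% of 12194 genes were. Dntt passed the filter against IR only through its high group, as did Vpreb1 and Igll1 in Ab_IR against IR and against L_IR. Vpreb3 passed in IR against Ctrl through the 3 IR libraries, with Ctrl reaching 1 FPKM in only 2. It likewise passed against Ctrl through Ab_IR and through L_IR, as did Vpreb1 and Igll1 through Ab_IR. These counts, and those against Ctrl below, therefore describe the genes and are no test of the group.

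Over all 9 genes, tested or not, every Ab_IR library was above every IR library for 8, with Vpreb3 the exception, where 41.4% of genes tested did the same. For L_IR over IR this held for 7 genes, where 43.1% did. IR libraries were all below Ctrl for 5 of the 9 genes, where 32.8% of genes tested were. Those 5 were Dntt, Rag1, Pax5, Igll1 and Cd79b. Ab_IR libraries were all above L_IR for 5 genes, where 25.2% were.

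In Ab_IR against Ctrl limma called 0 of the 6 genes tested, where 0.923% of 12134 genes were called. At an unadjusted p under 0.05 there were 4 of the 6, beside 20.9% of all genes tested. Vpreb1 and Vpreb3 are among the 4, and both passed the filter only through their Ab_IR libraries. Cd79b, at 0.48 (SE 0.0702, adjusted p = 0.0239), was the 1 gene higher by the adjusted p alone, where 1.45% of genes tested were. Vpreb3 differed by 1.002 (SE 0.374, adjusted p = 0.206), Vpreb1 by 0.62 (SE 0.24, adjusted p = 0.219) and Igll1 by 0.36 (SE 0.194, adjusted p = 0.312). Without Ctrl replicate 1 these differences were 0.54 (adjusted p = 0.0256), 0.33 (adjusted p = 0.0708) and 0.15 (adjusted p = 0.382), whereas with the Nppa split as a term they were 1.93 (adjusted p = 1.21e-06), 1.19 (adjusted p = 1.47e-05) and 0.79 (adjusted p = 0.000728), with Vpreb3 and Vpreb1 called. In a fit of all 12 libraries Vpreb3 alone of these 3 was called (adjusted p = 0.0424). Cd79a went from 0.51 (SE 0.147, adjusted p = 0.149) to 0.68 (adjusted p = 0.00104) without Ctrl replicate 1, and to 0.17 with the Nppa split as a term. In L_IR against Ctrl, 1 of 4 genes tested was called lower (Dntt), where 0.62% of 12251 genes were called lower. Cd79a and Cd79b, 2 of the 4, were higher by the adjusted p alone, where 4.76% of genes tested were, at 0.78 (SE 0.145, adjusted p = 0.0243) and 0.51 (SE 0.0674, adjusted p = 0.00662). With the Nppa split as a term Cd79a was 0.44 higher. Vpreb3 differed by 1.19 (SE 0.377, adjusted p = 0.114), and by 0.73 without Ctrl replicate 1. It was called in a fit of all 12 libraries (adjusted p = 0.0172) and, at 2.12, with the split as a term. The comparisons against Ctrl share its 3 libraries, and those against IR share the IR libraries.

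**Figure D2:**
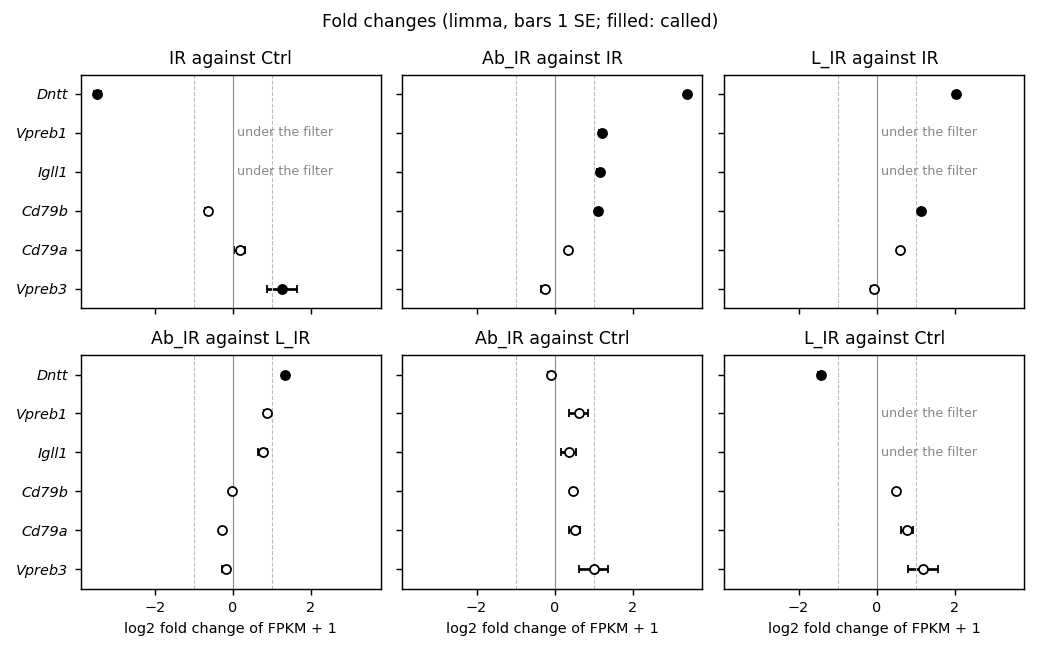
Differences in log2(FPKM + 1) (x axes) of the 6 B cell development genes that passed the filter in at least 1 comparison (rows), with 1 SE as bars and dashed lines at -1 and 1. Filled points passed both the adjusted p and the fold, and Dntt is filled in 5 of the 6 panels, all but Ab_IR against Ctrl.

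Some genes of the early lymphoid stage, which precedes these steps, fell in IR as Dntt did. Of 14 such genes listed, 12 passed the filter. In IR against Ctrl 5 of them were called lower and 0 higher, where 4.57% of all genes were called lower. Their median log2 change was -0.485, beside -0.046 over all genes. In these counts of lists, rose and fell mean called, by the adjusted p and the fold. A listed gene can pass the filter through its high group alone, so the counts describe the genes and are no test of a list. Without Ctrl replicate 1, 5 fell and 1 rose. Flt3, the cytokine receptor of early lymphoid progenitors, fell by 2.46 (SE 0.112, limma adjusted p = 3.17e-05), from 9.13 to 12.07 FPKM in Ctrl to 0.96 to 1.22 FPKM in IR. Cd27, a receptor of lymphoid-primed progenitors, fell by 2.15 (SE 0.108, adjusted p = 4.36e-05). Cd34, which encodes a surface sialomucin of progenitors, fell by 2.13 (SE 0.064, adjusted p = 8.06e-06). Surface Flt3 and CD34 were used to exclude cells at the sort, yet both transcripts were detected in every group. In Ab_IR against IR 4 of the 12 rose (5.11% of all genes), among them Flt3 by 2.03 and Cd27 by 1.94, though with the Nppa split as a term 3 rose and 1 fell. In L_IR against IR 4 rose (4.09% of all genes), with Flt3 at 1.72 and Cd27 at 1.63. Il7r, the receptor for the main growth factor of B cell precursors, was at 0.66 to 2.09 FPKM in the 12 libraries and its IR and Ctrl means were both 1.15 FPKM.

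Transcription factors of the lineage moved in both directions. Among 16 listed, 13 passed the filter in IR against Ctrl, with 3 called lower and 1 higher (2 and 1 without Ctrl replicate 1), beside 4.57% and 3.03% of all genes. Sox4, needed for pro-B cell survival, fell by 2.21 (SE 0.0768, limma adjusted p = 1.32e-05), and Irf8, which acts in lymphoid and myeloid choice, fell by 1.60 (SE 0.0893, adjusted p = 6.2e-05). Pou2af1, a coactivator of immunoglobulin transcription in B and plasma cells, rose by 2.31 (SE 0.0879, adjusted p = 1.84e-05). For Ab_IR against IR the calls were 3 higher and 1 lower of 13, beside 5.11% and 2.46% of all genes, and these 3 genes were called in the opposite directions, with Irf8 up by 1.89, Sox4 up by 1.72 and Pou2af1 at -1.93. For L_IR against IR the calls were 2 higher and 1 lower of 14, beside 4.09% and 2.13% of all genes. Irf8 was 1.97 and Sox4 1.30 higher, and Pou2af1 was -1.19. Of 12 listed genes of signalling downstream of the receptor, 9 or 10 were tested and 0 were called by limma in any of the 6 comparisons, though 1 was called lower in each of Ab_IR and L_IR against IR with the Nppa split as a term. By the adjusted p alone, 6 of 9 were higher in IR than in Ctrl, where 17.5% of genes tested were, with a median log2 change of 0.505. Of the genes tested, 7 in IR against Ctrl, 9 in Ab_IR against IR and 8 in L_IR against IR had an unadjusted p under 0.05, beside 51.3%, 71.3% and 69.5% of all genes tested.

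Markers of later B lineage cells were present beside the precursor genes. Ms4a1, which encodes CD20, was at 0.18 to 0.66 FPKM in the 12 libraries, and it, Cd22, Fcer2a, Cr2, Fcmr, Cxcr5 and Ccr6 were under 1 FPKM in all 12 libraries, 7 of 18 mature B cell markers. Igkc, the kappa light chain constant gene, was by contrast at 9409.42 to 12525.82 FPKM in Ctrl, 16423.21 to 17657.96 in IR, 16760.13 to 17305.31 in Ab_IR and 24121.42 to 24973.35 in L_IR. Summed over 14 plasma cell markers, all tested and including Igkc, which made up most of the sum, the level was 11158 to 14290 FPKM in Ctrl, 19155 to 20473 in IR, 19444 to 20213 in Ab_IR and 27955 to 28876 in L_IR. Of these 14, 4 rose and 0 fell in IR against Ctrl (3.03% of all genes rose), including Xbp1, the plasma cell secretory regulator, by 1.37 (SE 0.0825, limma adjusted p = 7.86e-05), and Mzb1, a plasma cell chaperone, by 1.59 (SE 0.307, adjusted p = 0.00731). In L_IR against Ctrl 9 rose and 0 fell, where 2.03% of genes tested rose. In Ab_IR against IR 0 were called higher and 2 lower, where 2.46% of genes tested were called lower. Those 2 were Xbp1 and the endoplasmic reticulum gene Creld2, and 0 fell with the Nppa split as a term. By the adjusted p alone 5 of the 14 were higher and 7 lower there, beside 4750 and 3543 of 12067 genes tested. In L_IR against IR 2 rose (4.09% of all genes), Tnfrsf17, the plasma cell survival receptor, by 1.29 (SE 0.076, adjusted p = 9.63e-06) and Slamf7 by 1.04 (SE 0.069, adjusted p = 1.63e-05), and 1 fell (2.13% of all genes), Creld2. With the Nppa split as a term 3 rose and 0 fell in L_IR against IR.

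Plasma cells are also known to keep Cd79a transcripts, and the part of plasma cell RNA in the Cd79a and Vpreb3 values was not tested. Ighm, the heavy chain of IgM, rose by 1.42 in IR against Ctrl (SE 0.0681, limma adjusted p = 3.79e-05) and was at 116.12 to 123.9 FPKM in Ctrl and 313.57 to 343.05 in IR. Jchain, which joins IgM and IgA polymers, was at 513.23 to 630.0 FPKM in Ctrl and 1258.81 to 1286.92 in L_IR. The summed mature B cell markers, in which Ighm is counted, were 288 to 296 FPKM in Ctrl, 468 to 495 in IR, 392 to 427 in Ab_IR and 494 to 501 in L_IR. Ighm was the largest part of this sum in IR. By group means its rise over Ctrl exceeded that of the sum, so the rest of the list did not rise in IR. The sum of the 9 B cell development genes was 42.9 to 45.4 FPKM in Ctrl, 27.1 to 28.1 in IR, 57.3 to 57.7 in Ab_IR and 50.7 to 52.4 in L_IR. Of the mature markers 8 or 9 were tested, and in IR against Ctrl 1 rose (Ighm) and 2 fell, beside 3.03% and 4.57% of all genes. Those that fell were the antigen presentation genes H2-Aa, by 1.63 (SE 0.13, adjusted p = 0.000234), and H2-Ab1, by 1.26 (SE 0.173, adjusted p = 0.00197). Of 9 tested, 2 rose in Ab_IR against IR, H2-Aa by 1.48 (SE 0.0955, adjusted p = 1.03e-05) and the B cell coreceptor gene Cd72 by 1.25 (SE 0.153, adjusted p = 0.00025), and 3 rose in L_IR against IR, these and H2-Ab1, while 0 fell in either, beside 5.11% and 4.09% of all genes that rose.

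**Figure D3:**
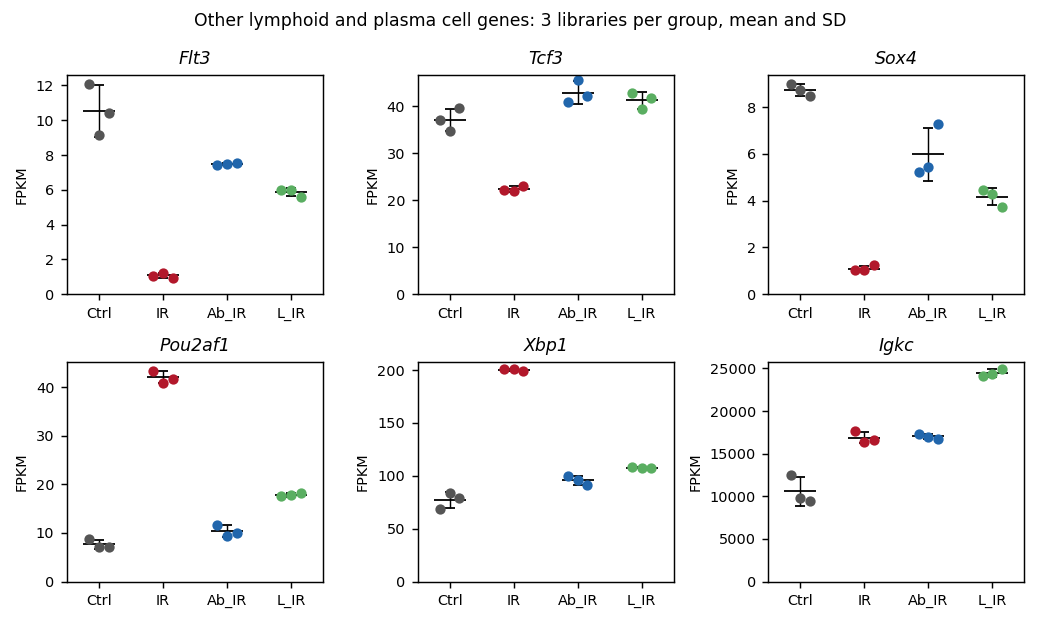
FPKM (y axes, linear and separate for each gene) of the lymphoid genes Flt3, Tcf3 and Sox4 and of Pou2af1, Xbp1 and Igkc, which are active in plasma cells, by group (x axes). Points are single libraries and bars give the mean and SD (n = 3), and the first 3 genes are lowest in IR while Pou2af1 and Xbp1 are highest there.

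Across the 12 libraries, the genes whose log2(FPKM + 1) was most like that of Dntt were Hba-a2, an adult globin gene, at Pearson r = 0.997 and Hebp1 at r = 0.996, among 11992 genes whose mean reached 1 FPKM. For Cd79a they were an immunoglobulin kappa variable gene at 0.973 and Cd68, a macrophage marker, at 0.946. Cd79b came closest to Pafah1b3 at 0.988 and Cd300lg at 0.986, and Vpreb3 to Eif4a3 and Bax, both at 0.976. Vpreb1 was closest to Fau at 0.977 and Oaz2 at 0.970, and Igll1 to Wdr83os at 0.974 and Retnlg at 0.963. The 12 libraries fall into 4 groups and share the same scaling, so these values describe likeness of group pattern only.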

How the data were processed

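Titles in the labels placed the 12 RNA-seq libraries in 4 groups of 3. Stranded mRNA libraries were made from column-purified RNA, per the labels, and the submitters' processing notes name fastp, HISAT2, StringTie and the build GRCm38. The study's methods instead name RSEM for quantification and a count test, which was not applied. The deposited files give gene names and values that were read as FPKM, as the authors computed them. FPKM times exon length in kb summed to 913577 to 945263 per library. Whole reads could not be recovered, since only 21.1% to 35.2% of low values fell within 0.1 of whole steps, so the depth is unknown.

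A moderated linear model (limma 3.58.1 in R 4.3.3, with an intensity trend) was run on log2(FPKM + 1) for each pair of groups, taking genes that reached 1 FPKM in 3 or more libraries. A gene counted as called when its p, adjusted over all genes tested by Benjamini and Hochberg, was under 0.05 and its log2 fold change above 1 in size. The script was tested on simulated data. GENCODE M21 (30230 names, 96.7%, matched) gave positions, and RefSeq gave promoters. The genes and lists were chosen with earlier results of these data known. The named genes are the 9 genes, up to 3 called genes of the largest change per list and comparison, Vpreb2, Rag2, Il7r, Ms4a1, Ighm, Igkc, Jchain, Xbp1 and Nppa, and for the 6 genes tested the 2 most correlated genes. Not all that this rule allows are printed, 1 gene it names is not reported here, and Tcf3 in the figure, Cd22, Fcer2a, Cr2, Fcmr, Cxcr5, Ccr6, Ly6a, Nkg7, Slamf1, Mecom, Hoxb5 and Fgd5 were chosen after their values were seen. Alternatives were a pseudocount of 0.1, no filter, a mean of at least 10 FPKM, quantile and median ratio scaling, leaving out immunoglobulin genes, summing rows of a gene name, limma without trend, all 12 libraries in 1 fit, the replicate block, a term for the Nppa split and the omission of each library. Added after seeing the data were fits without a filter combined with a pseudocount of 0.1 or without Ctrl replicate 1, and the list counts without Ctrl replicate 1 or with the split. Plots used matplotlib 3.10.9 (Python 3.11.15).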

Additional observations from a re-analysis of the deposited data

How the results depend on the processing

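Dntt, Cd79b and Vpreb3 are the genes whose calls decide most of these counts. Of 536 values of the 30 fold changes under the alternatives, 514 kept their direction and side of the threshold, 10 lost the call, 9 gained it and 3 reversed. The reversals came with the Nppa split as a term, for Cd79a at -0.18 and Vpreb3 at 1.13 in Ab_IR against IR and Vpreb3 at 1.32 in L_IR against IR. Only Ctrl spans the split, so the term carries the values of Ctrl replicate 1 into these differences. In that library Vpreb3 was at 0 and Cd79a at 16.84 FPKM. What underlies the split was not tested. In IR against Ctrl, 2 of the B cell development genes were called, and 1 with a pseudocount of 0.1, 1 without a filter and 4 with both, while leaving out a library in turn gave 1 to 2. The 4 in IR against Ctrl were Dntt, Igll1, Pax5 at -2.08 and Rag1 at -1.76. A mean of at least 10 FPKM leaves only Cd79a and Cd79b to test, and gave 0 there (1 at an unadjusted p under 0.05 by limma), 1 in Ab_IR against IR (4 as reported, and 3 to 6 under the other alternatives), 1 in L_IR against IR (2 as reported), 0 in Ab_IR against L_IR (1 unadjusted) and 0 in L_IR against Ctrl (2 unadjusted). L_IR against IR gave 4 without a filter and with a pseudocount of 0.1, and 5 with the split. Ab_IR against L_IR gave 3 with the pseudocount of 0.1, and 4 without a filter too, Rag1 among them at 1.416. With both of these changes Pax5 and Rag1 were also called in Ab_IR against IR, at 1.52 and 1.875. Ab_IR against Ctrl gave 1 in a fit of all 12 libraries and 2 with the split, and L_IR against Ctrl gave 2 in both. Replicate numbers did not pair the samples, with correlations of deviations between -0.3 and 0.25, and a fit with the replicate block called 2, 4, 2, 1, 0 and 1 of the genes in the 6 comparisons, as without it.

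Over all genes, a mean of at least 10 FPKM called 405 in IR against Ctrl (918 otherwise), 367 in Ab_IR against IR (914), 302 in L_IR against IR (756), 42 in Ab_IR against L_IR (65), and against Ctrl 70 in Ab_IR (112) and 206 in L_IR (325). A pseudocount of 0.1 called 1512 genes in Ab_IR against IR, 1294 in L_IR against IR and 165 between Ab_IR and L_IR, and without a filter 2620, 2328 and 386, with 1832 in IR against Ctrl. The split as a term called 2079 in Ab_IR and 1662 in L_IR against IR, and 860 in Ab_IR and 916 in L_IR against Ctrl. In Ab_IR against Ctrl 73 were called without a filter, and 60 to 65 when 1 Ab_IR library was left out. Leaving out immunoglobulin genes moved the median of all genes by -0.122 in Ab_IR against IR and -0.116 in Ab_IR against L_IR, called against Ctrl 60 genes in Ab_IR and 157 in L_IR, and took the share of calls that were higher from 75.0% to 60.0% and from 76.6% to 63.1%. Quantile normalization took it from 65.7% to 55.4% in L_IR against IR.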

Other observations

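Several T cell genes rose in L_IR against IR. Of 15 T and NK cell markers 13 were tested in L_IR against IR and 5 rose, including Trac, the T cell receptor alpha constant gene, by 1.71 (SE 0.0816, limma adjusted p = 3.61e-06) and Cd8b1, a coreceptor of cytotoxic T cells, by 1.41 (SE 0.112, adjusted p = 3.93e-05), while 0 fell, beside 4.09% of all genes that rose. Cd8b1 was under 1 FPKM in every IR library and passed the filter only through L_IR. In Ab_IR against IR 1 of 11 rose (Trac, by 1.14, SE 0.0938, adjusted p = 3.45e-05), beside 5.11% of all genes. In IR against Ctrl limma called 0 of 12, with 6 at an unadjusted p under 0.05, beside 51.3% of all genes. All 6 were lower by the adjusted p alone, as were 3084 of 12072 genes tested. The summed level of the 15 was 192 to 308 FPKM in Ctrl, 242 to 245 in IR, 310 to 319 in Ab_IR and 288 to 297 in L_IR, most of it from Nkg7, a cytotoxic granule gene, at 263.05 to 271.08 in Ab_IR and 211.79 to 220.88 in L_IR. Trac was at 5.9 to 7.11 FPKM in Ab_IR and 9.69 to 10.74 in L_IR. Dntt also acts in thymocytes, and the part of T lineage RNA in its values was not tested. Of 8 plasmacytoid dendritic cell markers, 4 or 5 were tested, and they moved both ways. In IR against Ctrl, where 4.57% of all genes fell, 1 fell (Siglech, by 1.54, SE 0.154, adjusted p = 0.000577), and in Ab_IR against IR, where 5.11% rose, 2 rose (Siglech, by 1.04, SE 0.0628, adjusted p = 7.71e-06, and Cd300c, by 1.27, SE 0.165, adjusted p = 0.000352). Both were under 1 FPKM in every IR library, so in each of these comparisons they passed the filter only through the high group. In L_IR, where 2.13% fell against IR and 0.62% against Ctrl, 1 fell, Cox6a2, by 1.20 against IR (SE 0.0631, adjusted p = 5.58e-06) and by 1.40 against Ctrl (SE 0.15, adjusted p = 0.00271). With the Nppa split as a term, 2 of the list fell in IR against Ctrl, 1 rose in Ab_IR against IR, and 1 rose and 0 fell in L_IR against IR. The 8 summed to 53.5 to 54.1 FPKM in Ctrl, 36.5 to 43.8 in IR, 54.9 to 56.5 in Ab_IR and 53.4 to 56.3 in L_IR.

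Of the 14 HSC markers, 8 were tested in IR against Ctrl and 4 fell (4.57% of all genes), among them Kit, the stem cell factor receptor, by 1.63 (SE 0.0788, adjusted p = 3.83e-05) and Gata2, a stem cell transcription factor, by 1.51 (SE 0.0718, adjusted p = 3.57e-05). Ly6a went the other way, as given above. By the adjusted p alone 1 of the 8 was higher, where 17.5% of genes tested were. In Ab_IR against IR 4 of 8 rose (5.11% of all genes), with Gata2 at 1.55 (SE 0.0468, adjusted p = 3.46e-07), and in L_IR against IR 3 of 8 rose (4.09% of all genes). Among the 5 genes listed for the lineage gate, Ly6g, a neutrophil surface gene, was 1.73 higher in Ab_IR than in L_IR (SE 0.16, adjusted p = 0.000343). Ly6g was -1.64 (SE 0.18, adjusted p = 0.0002) and Itgam, which encodes a chain of Mac-1, -1.06 (SE 0.0489, adjusted p = 3.03e-06) in L_IR against IR, and Ly6g was -1.92 in L_IR against Ctrl (SE 0.358, adjusted p = 0.0241). With the Nppa split as a term only 1 of the 5 genes fell in L_IR against IR. Ly6c1 fell by 2.58 in IR against Ctrl (SE 0.0718, adjusted p = 6.39e-06) and rose by 2.33 in Ab_IR (SE 0.0591, adjusted p = 1.63e-07) and 1.75 in L_IR (SE 0.0958, adjusted p = 6.75e-06) against IR. The 5 genes summed to 89.5 to 91.8 FPKM in Ctrl, 82.0 to 85.5 in IR, 76.7 to 83.4 in Ab_IR and 60.6 to 64.6 in L_IR.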
